A study of Rattus norvegicus with 24 samples.

Results

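Slow and oxidative fibre marker genes were examined as a group of 4 genes among the 31998 genes of the count table: Myh7 (ENSRNOG00000016983), Myh6 (ENSRNOG00000025757), Atp2a2 (ENSRNOG00000001285) and Mb (ENSRNOG00000004583). They were chosen by name for their known roles, with earlier results of these data known. The deposited table gives Ensembl IDs without names, so the pairing of these names with IDs comes from the list used to choose the genes. The libraries came from plantaris, a muscle of the calf, in 14-month-old female rats, of generation 19 in each of the lines HRT and LRT. HRT rats were bred for a large and LRT rats for a small improvement in running when trained. The 4 groups of 6 libraries were HRT overload, HRT control, LRT overload and LRT control. Overloaded muscles were taken 14 days after the gastrocnemius and soleus of one leg had been ablated. Whether the control plantaris was from separate rats or the other leg is not stated in the labels.

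Muscle fibres differ in speed and in how they make energy. Slow fibres build their thick filaments from the beta myosin heavy chain encoded by Myh7, pump calcium back into the sarcoplasmic reticulum with the SERCA2 pump encoded by Atp2a2, and hold oxygen with myoglobin, encoded by Mb. Fast oxidative fibres also carry myoglobin. Myh6 encodes the alpha myosin heavy chain, best known from the heart, and lies beside Myh7 with a nearly identical coding sequence. The plantaris is a predominantly fast muscle, and sustained overload of it by removal of its synergists is a classical model of growth with a shift towards slower fibre types.

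Library totals ranged from 26997674 to 34254957 estimated counts, and all 4 genes were among the 16661 that had enough counts to be tested. Myh7 held 0.0683% to 0.863% of the counts of a library, Mb 0.334% to 0.699%, Atp2a2 0.0785% to 0.203% and Myh6 0.000315% to 0.0185%. In these whole-muscle libraries, fewer cells of a type and less RNA per cell cannot be told apart. RNA integrity numbers (RIN) were higher in overloaded muscle, at 8.97 ± 0.327 in HRT overload and 8.27 ± 0.216 in HRT control, and at 8.67 ± 0.258 in LRT overload and 8.28 ± 0.147 in LRT control (SD, n = 6 each). RIN ran from 8.6 to 9.4 in HRT overload and from 8 to 8.6 in HRT control. In LRT it ran from 8.2 to 8.9 and from 8.1 to 8.5. Fits with RIN as a covariate therefore cannot fully separate it from overload, least of all in HRT.

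Calls after overload differed between the 4 genes. In HRT muscle Atp2a2 and Mb fell, while Myh7 and Myh6 did not pass the test. In LRT muscle none of the 4 passed, although Atp2a2 was again lower and Myh7 higher on average, and Mb was lower except with libraries scaled by their totals alone. Changes were tested with edgeR's quasi-likelihood test and called at a Benjamini-Hochberg adjusted p under 0.05 over all tested genes. In HRT, 2 of the 4 genes were called, both lower, against 63.2% of all tested genes called and 31.2% called lower. In LRT, 0 of the 4 were called against 57.2% of all tested genes. DESeq2 and limma-voom also called 0 of the 4 in LRT. At an unadjusted p under 0.05 there was 1 gene in each tool, Atp2a2 (lower) in edgeR and DESeq2 and Myh7 (higher) in limma-voom. The median log2 fold change of the 4 genes was −0.23 in HRT and −0.28 in LRT, and over all tested genes it was −0.02 in each line. In the edgeR fit of all libraries the 4 genes had values of both signs in each line. The HRT median was −0.15, −0.13, −0.58 and −0.02 without HRT overload replicate 1, 2, 5 or 6. The median was −0.7 in HRT and −0.48 in LRT with RIN as a covariate, and 0.03 in HRT and −0.05 in LRT with libraries scaled by their totals. With RIN all 4 values were negative in HRT, at −0.74 for Atp2a2, −0.97 for Mb, −0.18 for Myh7 and −0.65 for Myh6. Without HRT overload replicate 5 all 4 were also negative there.

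Myh7 is the defining slow myosin of limb muscle. In HRT overload its level ran from 3090 CPM (counts in each 1000000 of the library after trimmed mean of M values, TMM, scaling) through a median of 3600 to 7900, against 2850, 3400 and 4820 CPM in HRT control. The groups overlapped, and only HRT overload replicate 5 lay above every control library. The mean was 4330 ± 1840 CPM in HRT overload and 3650 ± 738 CPM in HRT control (SD, n = 6 each), and the log2 fold change, 0.25 with an SE of 0.314, did not pass (edgeR adjusted p = 0.506). Without HRT overload replicate 5 the log2 fold change was −0.01, and with RIN as a covariate it was −0.18 ± 0.459 (edgeR adjusted p = 0.767), so no direction held for Myh7 in HRT.

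In LRT overload Myh7 ran from 3330 through a median of 4140 to 7160 CPM, against 809, 3340 and 5980 CPM in LRT control. Of the 6 overloaded libraries, 5 lay above the control median and 2 above the highest control library. The mean was 4790 ± 1640 CPM in LRT overload and 3300 ± 1660 CPM in LRT control (SD, n = 6 each), and the log2 fold change of 0.54 ± 0.315 (SE) did not pass (edgeR adjusted p = 0.149). LRT control replicates 3 and 5, at 809 and 5980 CPM, were the extremes of that group and pulled in opposite directions. Without replicate 3 it came to 0.33 (edgeR adjusted p = 0.278), and without replicate 5 it was 0.79 (edgeR adjusted p = 0.0339). With libraries scaled by their totals alone it was 0.75 (edgeR adjusted p = 0.0483). Under that scaling the median of all tested genes itself moved by 0.27 in HRT and 0.22 in LRT.

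Atp2a2, the gene of the SERCA2 calcium pump, was counted over all its transcripts and was the most uniformly lower of the 4 genes. It ran from 931 through a median of 1290 to 1550 CPM in HRT overload, against 1520, 1640 and 2150 CPM in HRT control. Of the 6 overloaded libraries, 5 lay below every control library, and the sixth, replicate 5, lay within the control range. The mean was 1230 ± 248 CPM in HRT overload and 1750 ± 274 CPM in HRT control (SD, n = 6 each), and the log2 fold change was −0.5 with an SE of 0.17 (edgeR adjusted p = 0.0131). In LRT overload it ran from 945 through 1340 to 1490 CPM, against 930, 1680 and 2230 CPM in LRT control, so the groups overlapped while no overloaded library reached the control median. In LRT the log2 fold change, −0.37 with an SE of 0.17, missed the threshold (edgeR adjusted p = 0.0682). LRT control replicate 3, lowest of its group in Atp2a2, Myh7 and Mb, moved that value: without it the log2 fold change came to −0.49 and passed (edgeR adjusted p = 0.00839). With all libraries and RIN as a covariate it also passed, at −0.5 (edgeR adjusted p = 0.0326), and the HRT value was then −0.74 (edgeR adjusted p = 0.0146). Over 37 alternatives its adjusted p in HRT ran from 0.00425 to 0.228 and the value was negative throughout. Scaling by totals alone gave −0.22 in HRT (edgeR adjusted p = 0.228) and −0.14 in LRT (edgeR adjusted p = 0.466).

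Mb encodes myoglobin, the oxygen store of oxidative fibres. In HRT overload it ran from 2640 through a median of 4500 to 6600 CPM, against 5480, 6250 and 7420 CPM in HRT control. The overloaded libraries fell apart into replicates 1, 2 and 6, at 3330, 3130 and 2640 CPM and below every control library, and replicates 3, 4 and 5, at 5810, 6600 and 5660 CPM and inside the control range. Atp2a2 was also lowest in replicates 1, 2 and 6, at 931, 1220 and 957 CPM. Their RIN values were 8.6, 8.6 and 9.2, and those of replicates 3, 4 and 5 were 9.4, 8.9 and 9.1. Any part of RIN in this split was not tested. The mean of Mb was 4530 ± 1680 CPM in HRT overload and 6410 ± 850 CPM in HRT control (SD, n = 6 each), and the log2 fold change was −0.5 with an SE of 0.19 (edgeR adjusted p = 0.0249). That call was not firm. It was lost without HRT overload replicate 1, 2 or 6 (−0.43, −0.42 and −0.36 on the log2 scale, with edgeR adjusted p = 0.0626, 0.0653 and 0.09) and without HRT control replicate 3 or 4 (−0.46 each, edgeR adjusted p = 0.0533 and 0.0511). It was also lost in a fit of the 2 HRT groups alone (−0.48, edgeR adjusted p = 0.0741) and with scaling by totals (−0.25, edgeR adjusted p = 0.154). With RIN as a covariate it was −0.97 ± 0.265 (edgeR adjusted p = 0.00397), and over the 37 alternatives the adjusted p ran from 0.00397 to 0.154.

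Mb in LRT overload ran from 3420 through a median of 5200 to 6320 CPM, against 4930, 5840 and 6530 CPM in LRT control. Here too 3 overloaded libraries lay below every control library, replicates 1, 2 and 3. The mean was 5100 ± 1120 CPM in LRT overload and 5820 ± 532 CPM in LRT control (SD, n = 6 each), and the log2 fold change of −0.19 with an SE of 0.19 did not pass (edgeR adjusted p = 0.408). Scaling by totals alone gave 0.04, and RIN as a covariate gave −0.45 (edgeR adjusted p = 0.0686). The spread of Mb between libraries was wider after overload. Its SD on the log2 scale was 0.56 in HRT overload and 0.19 in HRT control, and 0.34 in LRT overload and 0.14 in LRT control.

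**Figure D1:**
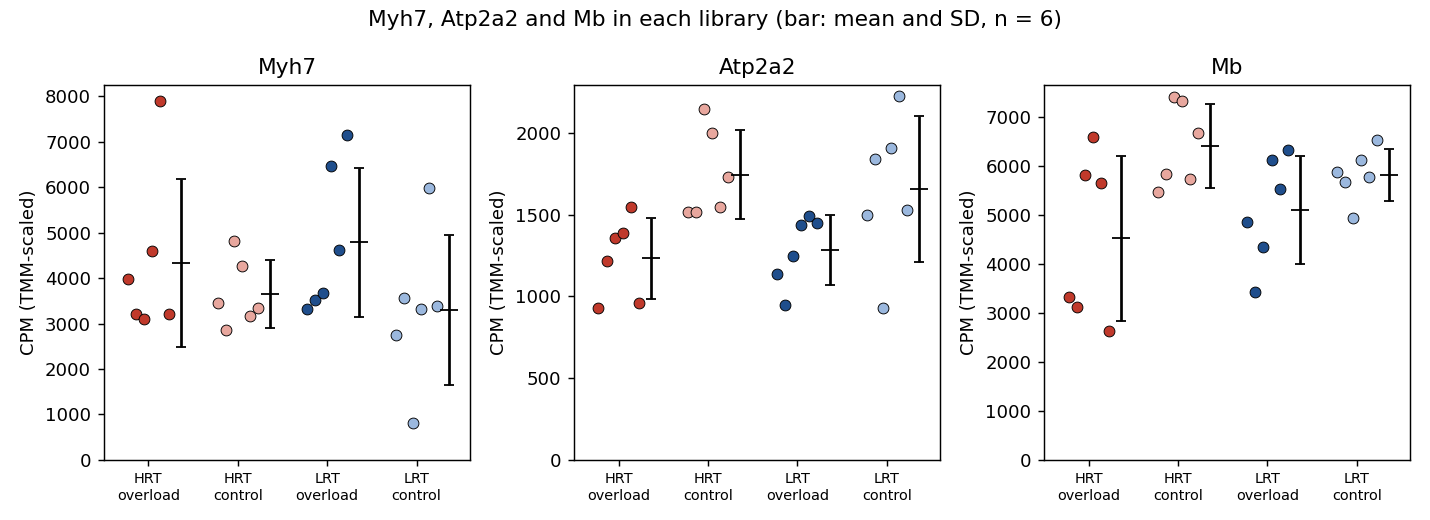
Levels of Myh7, Atp2a2 and Mb (CPM after TMM, linear axes from 0) in the 6 libraries of each group, each point 1 library, with the mean and SD as a bar. In HRT overload 5 of 6 libraries lie below every HRT control library for Atp2a2 and 3 of 6 for Mb, while the Myh7 groups overlap in both lines.

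The regions upstream of Mb and Atp2a2 are shown, and any link between them and overload was not tested. The Myh7 window ended in letters like the end of an intron, so the Myh7 and Myh6 windows were searched but are not printed. Those shown are the 250 bases before the annotated start in RefSeq's GRCr8 assembly, which is not the build of the counts. They are read 5′ to 3′ on the strand of the gene. Capitals mark letters searched on both strands: the TATA box TATAAA, the E-box CANNTG bound by myogenic factors, and CATNCC, the core of the MCAT element of muscle genes.
Mb, chr7:110647743-110647992, minus strand: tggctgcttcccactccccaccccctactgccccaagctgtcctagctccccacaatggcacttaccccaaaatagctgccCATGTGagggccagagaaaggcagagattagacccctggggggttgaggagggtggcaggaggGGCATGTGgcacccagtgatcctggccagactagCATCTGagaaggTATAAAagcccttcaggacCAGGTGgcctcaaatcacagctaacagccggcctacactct
Atp2a2, chr12:39733269-39733518, plus strand: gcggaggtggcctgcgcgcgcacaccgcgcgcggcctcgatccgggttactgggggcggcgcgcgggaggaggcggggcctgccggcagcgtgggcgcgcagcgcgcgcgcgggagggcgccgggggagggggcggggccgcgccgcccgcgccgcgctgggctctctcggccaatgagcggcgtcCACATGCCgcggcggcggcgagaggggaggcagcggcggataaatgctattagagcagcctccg
The Mb window held 1 TATA box, 4 E-boxes and 1 CATNCC match, which lies on the other strand and overlaps an E-box. The Atp2a2 window held no TATA box, and its 1 E-box and 1 CATNCC match overlap. Of 33469 windows of this length, 12.9% held TATAAA, 65.5% an E-box and 34.1% CATNCC, so a match to E-box letters is common. Neither window held a match to the MEF2 consensus, found in 2.96% of windows. The base composition differed, with 58.4% G and C in the Mb window and 80% in the Atp2a2 window, against a median of 51.2%.

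The balance between these genes was also compared within each library, which does not depend on how libraries are scaled. These ratios use the same libraries as the fold changes above, and the genes were chosen with earlier results known, so their tests are no independent support. The ratio of Myh7 to Atp2a2 counts was higher after overload in both lines. On the log2 scale it was 2.1, 1.4, 1.18, 1.72, 2.35 and 1.74 in HRT overload replicates 1 to 6, against 1.18, 0.91, 1.16, 1.09, 1.03 and 0.95 in HRT control replicates 1 to 6. Every overloaded HRT library lay above every control one, but HRT overload replicate 3 and HRT control replicate 1 were equal to 2 decimals. The mean was 1.75 ± 0.43 in HRT overload and 1.05 ± 0.11 in HRT control (SD, n = 6 each), a difference of 0.7 or 1.62-fold (two-sided exact permutation p = 0.00216, which is as small as groups of 6 can give, and 0.026 adjusted over 24 ratio tests).

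In LRT the log2 ratio of Myh7 to Atp2a2 was 1.55, 1.89, 1.56, 2.17, 1.63 and 2.31 in overload replicates 1 to 6, against 0.87, 0.96, −0.2, 0.79, 1.42 and 1.14 in control replicates 1 to 6. The groups did not overlap. The mean was 1.85 ± 0.33 in LRT overload and 0.83 ± 0.55 in LRT control (SD, n = 6 each), a difference of 1.02 or 2.03-fold (exact permutation p = 0.00216, two-sided, 0.026 adjusted over 24 ratio tests). Each of the 12 libraries of a line was also left out in turn, which cannot make groups that lie apart overlap. Over those tests the exact permutation p ran from 0.00216 to 0.0108 in HRT and from 0.00216 to 0.00433 in LRT. After adjustment the HRT difference no longer passed without any one of the 6 HRT control libraries, at 0.0866 to 0.104. The LRT difference no longer passed without any one of the 6 LRT overload libraries, at 0.0519. In these tests the difference itself was 0.67 to 0.72 in HRT and 0.93 to 1.08 in LRT, and 462 splits allow only coarse steps of p. Over 37 alternatives, with DESeq2 and limma-voom among them, the log2 fold change of Myh7 exceeded that of Atp2a2 by 0.56 to 0.86 in HRT. In LRT it did so by 0.79 to 1.06. Many of these alternatives could hardly change that excess. Other scalings shift both genes nearly alike, and leaving out a library of the other line scarcely enters the comparison. With RIN as a covariate the excess was 0.56 in HRT and 0.79 in LRT.

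The ratio of Myh7 to Mb was also higher on average. In HRT overload the log2 ratio of Myh7 to Mb ran from −0.91 through a median of 0.15 to 0.48, against −1.03, −0.82 and −0.62 in HRT control. In LRT overload it ran from −0.55 through −0.1 to 0.18, against −2.61, −0.92 and 0.05 in LRT control. In HRT the log2 ratio was −0.06 ± 0.54 in overload and −0.83 ± 0.17 in control (SD, n = 6 each), a difference of 0.76 (exact permutation p = 0.0152, two-sided, 0.0866 adjusted). In LRT it was −0.13 ± 0.27 in overload and −1.03 ± 0.87 in control, a difference of 0.9 (exact permutation p = 0.0152, n = 6 each, 0.0866 adjusted). The groups overlapped in both lines, LRT control replicate 3 was the lowest library of all at −2.61, and neither difference passed the adjustment. The balance of Atp2a2 and Mb did not pass in either line. Their log2 ratio differed by 0.07 in HRT, at −1.81 ± 0.35 in overload and −1.88 ± 0.06 in control (exact permutation p = 0.639, n = 6 each), and by −0.12 in LRT, at −1.98 ± 0.14 in overload and −1.86 ± 0.37 in control (exact permutation p = 0.483, n = 6 each). A p of this size does not show that the 2 genes changed equally. HRT overload libraries spanned −2.25 to −1.36 in this ratio, against −1.95 to −1.78 in HRT control.

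**Figure D2:**
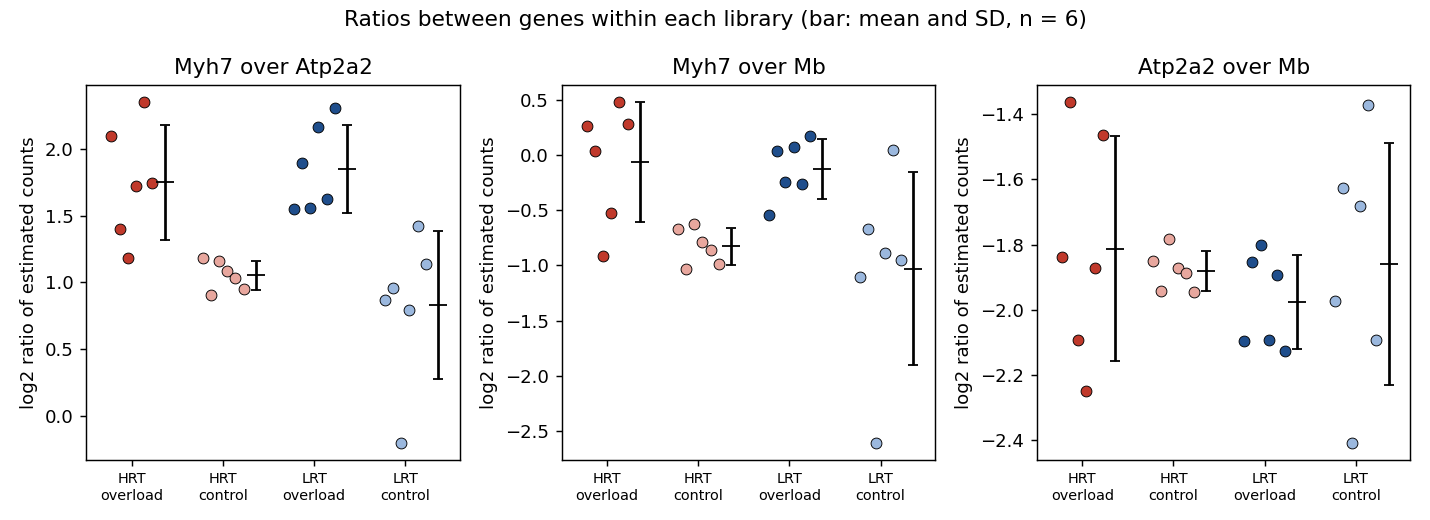
Log2 ratios of estimated counts between genes within each library, each point 1 library, with the mean and SD as a bar. For Myh7 over Atp2a2 the overloaded libraries lie at 1.18 to 2.35 in HRT and 1.55 to 2.31 in LRT, against 0.91 to 1.18 and −0.2 to 1.42 in control, while Atp2a2 over Mb overlaps between the states. Levels of a ratio are not corrected for gene length.

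**Figure D3:**
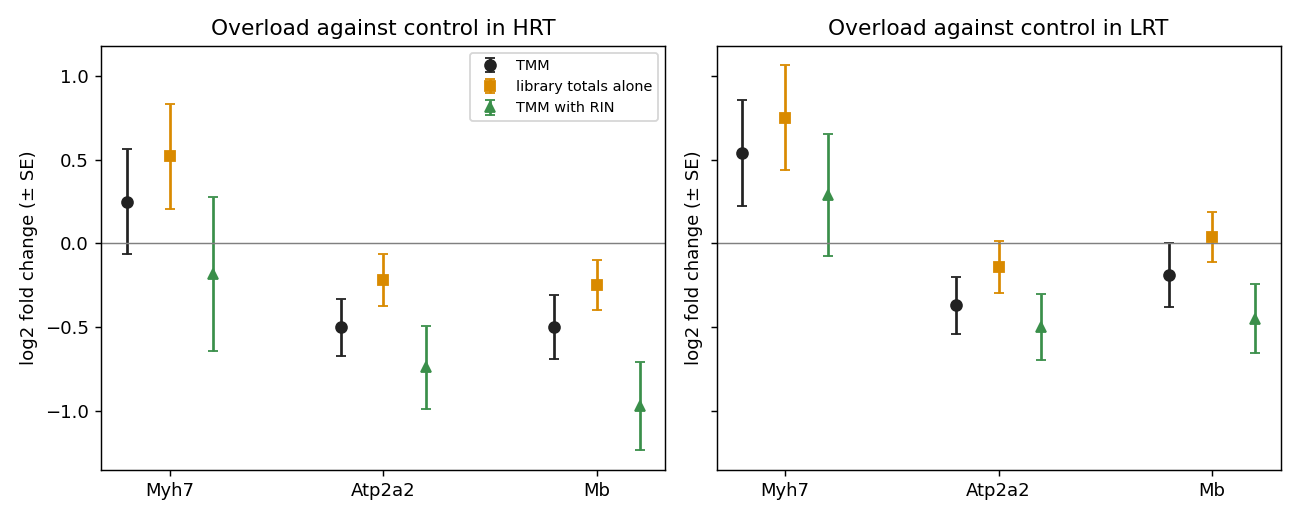
Log2 fold changes of overload against control with their standard errors for Myh7, Atp2a2 and Mb in each line, by TMM scaling, by library totals alone and by TMM with RIN as a covariate. The fold changes move together with the setting, from −0.18 to 0.52 for Myh7 in HRT and from −0.74 to −0.22 for Atp2a2 in HRT, and Myh7 stays above Atp2a2 in each setting.

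Myh6 had far fewer counts, and its estimates came in steps. In HRT overload it ran from 3 through a median of 43.4 to 169 CPM, against 43.6, 60.2 and 71 CPM in HRT control. In LRT overload it ran from 3.23 through 4.84 to 44.4 CPM, against 3.66, 43.2 and 72 CPM in LRT control. The groups overlapped in both lines. Means were 60 ± 57.5 CPM in HRT overload and 58.4 ± 12.3 CPM in HRT control, and 15.9 ± 18.6 CPM in LRT overload and 39 ± 28.3 CPM in LRT control (SD, n = 6 each). The log2 fold changes of 0.04 ± 0.766 in HRT and −1.3 ± 0.792 in LRT (SE) did not pass (edgeR adjusted p = 0.97 and 0.17). The HRT value was negative in 7 of 37 alternatives, among them limma-voom (−0.68) and RIN as a covariate (−0.65).

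Myh6 shares most of its sequence with Myh7, and the sources used here do not say how reads matching both were divided. As a percentage of the counts of both genes, Myh6 took 0.0888% to 0.108% in 5 libraries, 0.922% to 1.16% in 10 libraries and 1.91% to 2.15% in 8 libraries, with 1 library at 0.0501% and no value in between. The 6 libraries at the low end held 98.6 to 190.5 counts of Myh6 each and comprised 1 of HRT overload, 0 of HRT control, 4 of LRT overload and 1 of LRT control. Myh7 in these libraries was 3210 CPM in HRT overload replicate 6 and 3380 CPM in LRT control replicate 6. It was 3510, 3670, 6470 and 7160 CPM in LRT overload replicates 2, 3, 4 and 6. Their RIN ran from 8.2 to 9.2, and any part of Myh7 level or RIN was not tested. These bands were noticed in the data. Real differences in Myh6 and differences in how shared reads were assigned cannot be told apart here.

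Adding the counts of both genes into 1 value avoids that division. The sum was 4390 ± 1890 CPM in HRT overload and 3710 ± 730 CPM in HRT control, and 4810 ± 1640 CPM in LRT overload and 3340 ± 1680 CPM in LRT control (SD, n = 6 each). Its log2 fold changes were 0.24 ± 0.314 in HRT and 0.53 ± 0.315 in LRT (SE; edgeR adjusted p = 0.511 and 0.159), close to those of Myh7 alone. With libraries scaled by their totals the LRT value of the sum, 0.74, did not pass (edgeR adjusted p = 0.0517), while Myh7 alone did.

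**Figure D4:**
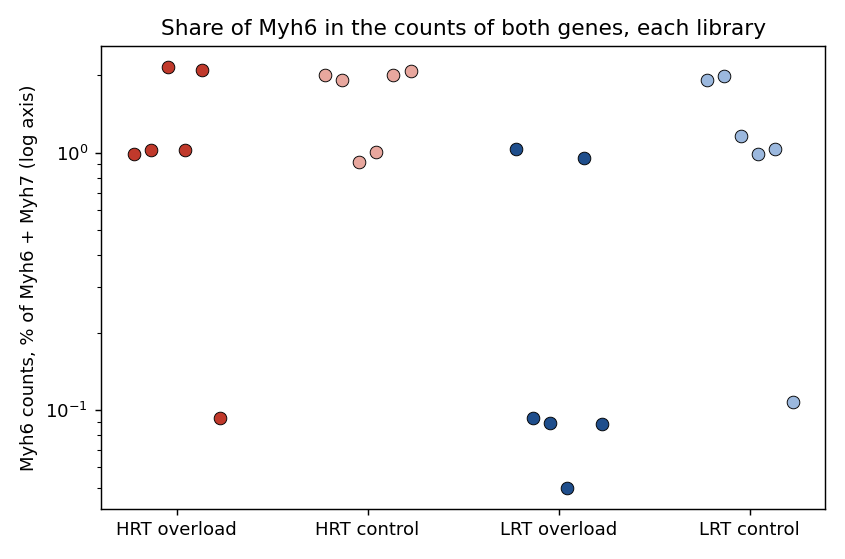
Counts of Myh6 as a percentage of the summed counts of Myh6 and Myh7 in each library (log axis), each point 1 library of the 4 groups. Values lie near 2%, near 1% or at 0.108% and below, and 4 of the 6 lowest are LRT overload libraries.

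The lines were then compared within each state, and none of the 4 genes passed the test. In overloaded muscle the log2 fold changes of LRT against HRT were 0.15 ± 0.314 for Myh7, 0.06 ± 0.17 for Atp2a2, 0.17 ± 0.19 for Mb and −1.92 ± 0.801 for Myh6 (SE; edgeR adjusted p = 0.826, 0.877, 0.629 and 0.164). Here 3.09% of all tested genes were called. Only Myh6 had an unadjusted p under 0.05 among the 4, and DESeq2 and limma-voom gave the same counts, 0 called and 1 at that level. All 3 tools used the same division of shared reads. The sum of Myh6 and Myh7 differed by 0.13 ± 0.314 (SE; edgeR adjusted p = 0.846). In control muscle the log2 fold changes of LRT against HRT were −0.15 ± 0.314 for Myh7, −0.08 ± 0.17 for Atp2a2, −0.14 ± 0.19 for Mb and −0.58 ± 0.772 for Myh6 (edgeR adjusted p = 0.869, 0.876, 0.773 and 0.765), where 1.97% of all tested genes were called. None of the 4 had an unadjusted p under 0.05 there in edgeR, DESeq2 or limma-voom.

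The difference between the responses of the lines was tested gene by gene. The LRT response minus the HRT response was 0.29 ± 0.445 on the log2 scale for Myh7, 0.13 ± 0.24 for Atp2a2, 0.31 ± 0.269 for Mb and −1.33 ± 1.1 for Myh6 (SE). None was called (edgeR adjusted p = 0.802, 0.84, 0.621 and 0.606), against 0.048% of all tested genes, and 0 of the 4 had an unadjusted p under 0.05 in edgeR, DESeq2 or limma-voom. The calls of Atp2a2 and Mb in HRT and not in LRT therefore do not show that the lines responded differently. In order of mean TMM-scaled level, the 2 overload groups stood above the 2 control groups for Myh7 and below them for Atp2a2 and Mb, and no step between neighbouring groups passed the edgeR test.

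To see which genes ran most like these, the root-mean-square difference between log2 CPM profiles over the 24 libraries was taken for 16657 other genes, with each profile centred on its own mean. Nearest to Myh7 was ENSRNOG00000028041, at 0.15, while Myh7 itself varied by 0.61 about its mean and the median gene lay at 0.71. After overload that gene was at 0.14 in HRT and 0.22 in LRT on the log2 scale, neither called (edgeR adjusted p = 0.698 and 0.548). Nearest to Atp2a2 was ENSRNOG00000010350, at 0.18 against a spread of 0.36, and it fell in both lines (−0.46 and −0.47, edgeR adjusted p = 0.0152 and 0.0156). Nearest to Mb was ENSRNOG00000019851, at 0.13 against a spread of 0.39, and it fell in HRT (−0.53, edgeR adjusted p = 0.00654) and was at −0.26 in LRT (edgeR adjusted p = 0.174). These genes were picked for closeness over the same libraries, so fold changes like those of Myh7, Atp2a2 and Mb follow from the choice. The second-closest genes lay nearly as near, at 0.16 for Myh7, 0.18 for Atp2a2 and 0.14 for Mb. No gene ran close to Myh6, whose nearest lay at 1.36 against a spread of 1.76. Among the 4 genes themselves Atp2a2 and Mb lay closest, at 0.25, while Myh7 lay at 0.57 from Atp2a2 and 0.65 from Mb. The files do not pair these IDs with names.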

How the data were processed

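The deposited table holds the authors' estimated counts per Ensembl gene ID for 24 libraries, not normalized. Per the submitters' processing notes, Salmon 0.9.1 was used with Rnor_6.0 or rn6. The annotation, the settings and the rule for reads matching several genes are not given in these sources. Estimated counts were rounded to whole numbers, and 16661 of 31998 genes passed filterByExpr of edgeR at a minimum count of 10 and a minimum total of 15.

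In R 4.3.3 with edgeR 4.0.16, all 24 libraries entered 1 robust quasi-likelihood model of the 4 group means after TMM scaling. The Benjamini-Hochberg adjustment ran over all tested genes, with a threshold of 0.05. Standard errors (SE) were derived from the F statistic and are approximate. Log2 ratios within libraries had 1 added to each count and were compared over all 924 splits. Alternatives used DESeq2 1.42.0, limma 3.58.1, other scalings and filters, RIN, the replicate number and each library left out. Figures were drawn with matplotlib 3.10.9.

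The 4 genes and the lists were chosen with earlier results of these data known. Named genes were the 4 and, by ID, the closest gene to each, at most 2 rising and 2 falling. Lists of other fibre and cell type genes were set by symbol, but 0 deposited IDs matched the 47357 genes of the GRCr8 name table, so these lists and markers of other cell types were not tested. Same-numbered libraries did not deviate together in every pair (r from −0.13 to 0.37 over 24 pairs). These extremes came from HRT overload against LRT overload, which are rats of different lines. Overload against control gave −0.07 to 0.06 in HRT and −0.1 to 0.13 in LRT. Low values there cannot exclude that same-numbered muscles came from the same rat, so this check does not decide the pairing. The main fits treated the libraries as unpaired, and the replicate number was used only in alternatives. The labels do not tie libraries to animals, so p-values reflect only how these samples spread. Within groups no 2 libraries agreed within sampling noise (chi-square of at least 15.5 per degree of freedom in 60 pairs).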

Additional observations from a re-analysis of the deposited data

Results flagged for a closer look

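Over 44 sets of 6 values, the gap between the highest or lowest library and its neighbour exceeded Dixon's limit of 0.625 of the range in 4. Chance alone flags about 1 set in 20, and several of the sets share values.

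HRT overload replicate 5 stood above the other HRT overload libraries in Myh7, at 7900 CPM with the next library at 4590 CPM, and likewise in the sum of Myh6 and Myh7, at 8070 CPM with the next at 4630 CPM. The same library had the highest Atp2a2 of its group, at 1550 CPM, and the highest Myh6, at 169 CPM.

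The log2 ratio of Myh7 to Myh6 counts stood apart in HRT overload replicate 6, at 10.06 with the next library at 6.65, and in LRT control replicate 6, at 9.84 with the next at 6.65. Both are among the 6 libraries with 98.6 to 190.5 counts of Myh6.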

How the results depend on the processing

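Over 37 alternatives (36 for the difference between responses), 883 of 920 values of the 4 genes and of the sum of Myh6 and Myh7 kept their direction and their side of the threshold, and 330 of 360 ratio values did over 15 alternatives. The 920 include fits without a library of neither compared group, which moved values little. Among the gene values only Atp2a2 and Mb in HRT were called to begin with, so for the rest keeping their side meant staying uncalled. Among the ratios only Myh7 to Atp2a2 passed to begin with, in both lines. In each line it kept its side in 8 of 15 alternatives. No cause of a change below was tested.

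With scaling by totals, the HRT calls of Atp2a2 (−0.22) and Mb (−0.25) were lost, Myh7 in LRT passed (0.75), and values turned for Mb in LRT (0.04) and, between lines in overloaded muscle, for Atp2a2 (−0.08) and the sum (−0.01). In a fit of the 2 HRT groups Mb was at −0.48. With RIN, HRT values turned for Myh7 (−0.18), the sum (−0.18) and Myh6 (−0.65), and Atp2a2 passed in LRT (−0.5). Limma-voom put Myh6 in HRT at −0.68.

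The replicate block put Myh6 in HRT at −0.45 and, with RIN, Myh6 at −2.1, Myh7 at −0.16 and the sum at −0.17 there, while Atp2a2 (−0.49) and Myh6 (−2.48) passed in LRT. As same-numbered pairs, the Myh7 to Atp2a2 ratio was higher in 6 of 6 pairs in each line, with differences of 0.7 and 1.02 and the smallest exact p that 6 pairs allow, 0.0312, which gave 0.188 after adjustment. The block changed no other call.

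With each library left out, the log2 fold changes in HRT ran from −0.64 to −0.36 for Mb, −0.01 to 0.34 for Myh7, −0.62 to 0.31 for Myh6 (turned without overload replicate 5 or control replicate 3 or 4) and −0.02 to 0.34 for the sum (turned without overload replicate 5). In LRT they ran from −0.49 to −0.27 for Atp2a2, 0.33 to 0.79 for Myh7 and 0.32 to 0.78 for the sum (called without control replicate 5). Between lines in control muscle they ran from −0.18 to 0.05 for Atp2a2, −0.4 to 0.06 for Myh7 and −0.41 to 0.05 for the sum, each turned without LRT control replicate 3. In overloaded muscle they ran from −0.01 to 0.13 for Atp2a2 (turned without HRT replicate 1), −0.01 to 0.41 for Myh7 and −0.02 to 0.39 for the sum (both turned without LRT replicate 6).

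Log2 ratio differences in HRT ran from 0.58 to 0.81 for Myh7 to Atp2a2, 0.66 to 0.93 for Myh7 to Mb (passed without overload replicate 3), −0.02 to 0.15 for Atp2a2 to Mb (turned without overload replicate 2 or 6), −0.48 to 0.54 for Atp2a2 to Myh6 (overload 6) and −0.48 to 0.46 for Mb to Myh6 (overload 6 or control 1). In LRT they ran from 0.81 to 1.14 for Myh7 to Atp2a2 and 0.59 to 1.12 for Myh7 to Mb (passed without control replicate 5). Between lines they ran from −0.42 to 0.11 for Myh7 to Mb (LRT 3) and −0.08 to 0.13 for Atp2a2 to Mb (LRT 2, 4 or 5) in control muscle, and from −0.23 to 0.04 for Myh7 to Mb (HRT 1, 5 or 6 or LRT 1) and −0.01 to 0.22 for Myh7 to Atp2a2 (HRT 3) in overloaded muscle.

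Over all settings the counts of genes called ran from 7230 to 10693 (10523 as reported) in HRT and 7913 to 9639 (9524) in LRT. They ran from 1 to 140 (8) for the difference between responses, 154 to 619 (328) between lines in control muscle and 115 to 2153 (514) in overloaded muscle. Counts were lowest for Myh6, at 98.6 to 190.5 in 6 libraries. With profiles centred within groups the closest gene stayed the same for Myh7 and changed for the other 3.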
